A study of Solea senegalensis with 8 samples.

Results

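Newly hatched larvae of the Senegalese sole (Solea senegalensis), a flatfish, were compared between 2 incubation temperatures, 15°C and 21°C, across all 320 conserved miRNAs of the deposited table, with no miRNA selected by its value. The 2 libraries of this stage, called Hatch, belong to a set of 8 that also holds 75% epiboly (75Ep), 20 somites (20S) and the climax of metamorphosis (Met), each with 1 library per temperature. Both Hatch libraries came from whole larvae sampled on the day of hatching, whose eggs had been laid naturally by captive breeders. The embryos had been kept in triplicate tanks at either 15°C or 21°C, and each library pooled the triplicate samples. In this sequencing the difference between temperatures at Hatch therefore has no replicate check, and no test of it was made. After hatching all larvae were reared at 21°C, so at Met the 2 temperatures stand for the earlier incubation. Larvae of Met were matched by stage, and those from 15°C were slightly older in days after hatching. The question was how the temperature of the embryo affects the miRNAs present at the start of larval life.

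MicroRNAs are short RNAs cut from hairpin precursors. One strand of the hairpin, named 5p or 3p after its arm, is usually kept by an Argonaute protein and guides it to mRNAs that pair with the miRNA's seed near its 5′ end, which lowers their translation or stability. Members of a family share this seed, so closely related members can take the same targets, and their reads can also be hard to assign to 1 member. In fish embryos the miR-430 family clears maternal transcripts, whereas miR-1, miR-133 and miR-206 mark muscle, miR-203 and miR-205 epidermis, and miR-9 and miR-124 the nervous system.

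Each deposited value is the log2 of the percent of trimmed reads that a miRNA took in its library, with -46.51 for a miRNA without a read. The value of 1 read gave 4312425 trimmed reads at 15°C and 3256433 at 21°C, within the 2169069 to 4965849 of all 8 libraries, and reads per miRNA were recovered from it. At Hatch, 98.9% of the 543 values of detected miRNAs came out as whole reads, within 0.01 read. Of the 6 others, 4 belong to both strands of miR-1a, 1 to miR-1c and 1 to miR-574, whose value at 15°C stood for 0.209 read and was counted as undetected. Folds are given as deposited, that is as ratios of the percent of trimmed reads, with exact 95% intervals in parentheses that cover counting error only and not the spread between fish, tanks or library preparations.

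As a share of trimmed reads, the 320 miRNAs of the table were higher in the library of 21°C. They took 1073554 reads or 24.9% of the library at 15°C and 994535 reads or 30.5% at 21°C. Of this gain of 5.65 percentage points, miR-130c alone held 3.95, miR-17a-5p 0.996 and miR-301c 0.635. Without miR-130c, the share was 22.5% at 15°C and 24.2% at 21°C. The 10 most abundant miRNAs took 52.1% of the miRNA reads at 15°C and 62.0% at 21°C, and 8 miRNAs were among them at both temperatures, namely miR-130c, miR-203a, miR-204, miR-206-3p, miR-10b, miR-10d, miR-301c and miR-203b-3p. miR-19b-3p and miR-430d were in the top 10 at 15°C only, at ranks 8 and 10, and miR-17a-5p and miR-430a at 21°C only, at ranks 5 and 10.

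Most miRNAs kept a similar level at both temperatures. Of the 320, 286 had a read in at least 1 Hatch library, 256 in both and 34 in neither, and 205 had at least 20 reads over both, which is the minimum used for the ratios. These 205 took 99.97% of the miRNA reads at 15°C and 99.98% at 21°C. Their median difference, 21°C minus 15°C, was -0.09 on the log2 scale (quartiles -0.51 and 0.33), and 118 of them (57.6%) were within 1.5-fold. At least 2-fold higher at 21°C were 20 miRNAs (9.76% of those compared) and at least 2-fold lower another 20 (9.76%). The ones nearest to this threshold were miR-24a-5p at -1.01, just past it, and miR-182-3p at -0.99, just short of it. Differences of this size were more frequent among rare miRNAs, with 10 of the 103 miRNAs of 1000 reads or more, 15 of the 67 with at least 100 but under 1000 and 15 of the 35 with fewer. The counting interval left out a ratio of 1 for 67 miRNAs that were higher at 21°C and for 77 that were lower.

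The balance between higher and lower depends on the scale. Rescaled to the total of miRNA reads, every difference moves by -0.29, the median becomes -0.38, and 13 miRNAs were at least 2-fold higher and 42 at least 2-fold lower. With miR-130c left out of that total the shift is -0.10, with 16 higher and 29 lower. Centred on the median miRNA, 24 were higher and 15 lower. Differences are therefore given as deposited and read against the median of -0.09, with the rescaled value where it bears on the direction.

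**Figure D1:**
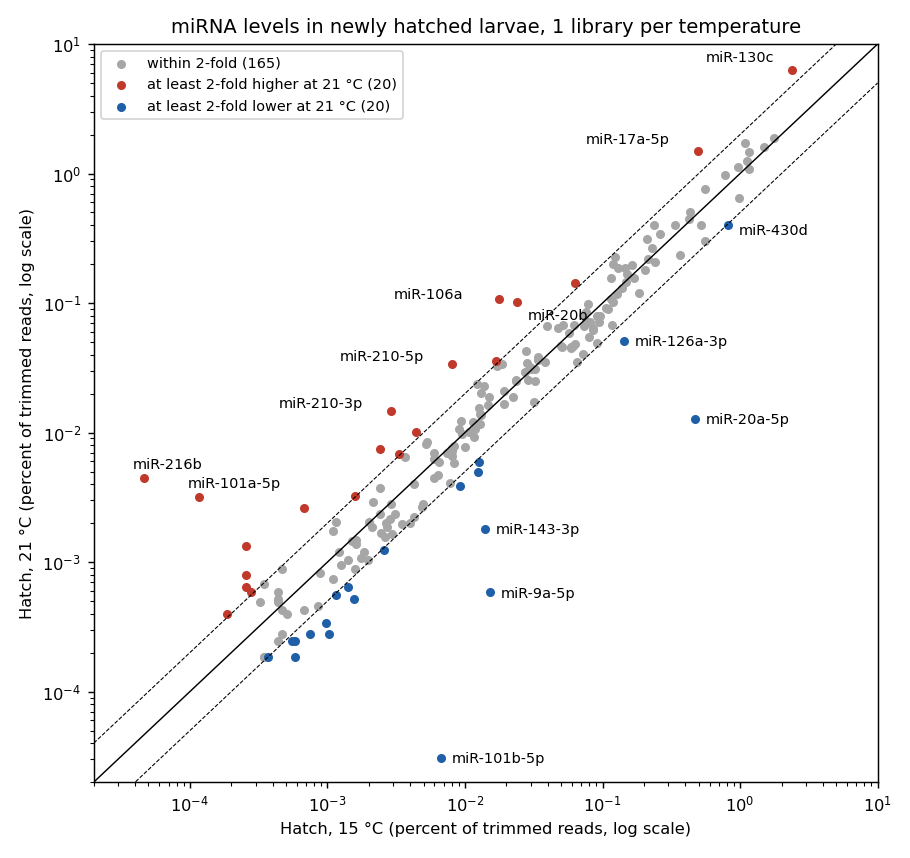
Level of each of the 205 miRNAs with at least 20 reads over both Hatch libraries, as a percent of trimmed reads at 15°C (x axis) and 21°C (y axis), both on log scales, with 1 library per temperature. The solid line marks equal levels and the dashed lines 2-fold; most points lie near the solid line, while miR-101b-5p, miR-20a-5p and miR-9a-5p lie far below it and miR-216b and miR-101a-5p far above.

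The miR-130 family, which includes miR-301 and miR-454 and whose 3p strands share a seed, was the group with the highest median at 21°C among those with at least 3 members compared. Of its 11 members, 9 passed the read minimum. At least 2-fold higher at 21°C were 4 of the 9 and none was 2-fold lower, beside 20 each way of all 205. Rescaled, 3 of the 9 were higher and 1 lower, beside 13 and 42 of all 205. The median difference of the 9 was 0.93 as deposited and 0.64 rescaled, beside -0.09 and -0.38 over all miRNAs. miR-130c, the most abundant miRNA of both libraries, had 102949 reads (2.39% of trimmed reads) at 15°C and 206311 (6.34%) at 21°C, a 2.65-fold difference (2.63 to 2.67) that was 1.41 on the log2 scale and 1.11 rescaled. miR-301c went with 47144 and 56287 reads, 1.58-fold (1.56 to 1.60) more at 21°C, and miR-130b-3p with 23842 and 24653 reads, 1.37-fold (1.35 to 1.39) more. The rarer miR-301b had 190 and 331 reads, miR-130a 11 and 43, and miR-454 11 and 21, which is 2.31-fold (1.92 to 2.77), 5.18-fold (2.63 to 11.1) and 2.53-fold (1.17 to 5.81) more at 21°C. The 5p strands differed from this, since miR-130b-5p had 9276 and 7099 reads, a difference of 0.02, and miR-301a-5p had 113 and 51 reads, a difference of -0.74, beside 0.93 for miR-301a-3p. Because miR-130c, miR-130b-3p and miR-130a are closely related, the split of reads among them is uncertain. Their sum was 126802 reads at 15°C and 231007 at 21°C, or 2.94% and 7.09% of trimmed reads.

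miR-17a-5p, miR-20a-5p, miR-20b and miR-106a also share a seed, and belong to the miR-17-92 cluster and its copies, which promote proliferation and growth of embryonic tissues in mammals. At Hatch they parted in opposite directions. For miR-17a-5p, 21294 reads (0.494%) were found at 15°C and 48511 (1.49%) at 21°C, a 3.02-fold difference (2.97 to 3.07). miR-106a had 759 and 3472 reads, 6.06-fold (5.60 to 6.56) more at 21°C, and miR-20b 1025 and 3321, 4.29-fold (3.999 to 4.61) more. In contrast, miR-20a-5p was read 20229 times (0.469%) at 15°C and 416 times (0.0128%) at 21°C, which is 36.7-fold (33.3 to 40.6) less at 21°C. Its partner strand miR-20a-3p had 539 and 162 reads, 2.51-fold (2.10 to 3.01) less at 21°C.

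Summed over these 4 miRNAs, the difference was smaller than that of any of them. The sum was 43307 reads (1.004%) at 15°C and 55720 (1.71%) at 21°C, which is 1.70-fold (1.68 to 1.73) more at 21°C. miR-20a-5p made up 46.7% of the sum at 15°C and 0.747% at 21°C. In the other 6 libraries it made up between 12.4% (75Ep at 21°C) and 26.2% (20S at 15°C), so both Hatch libraries lie outside the range of the other stages, on opposite sides. The sum without miR-20a-5p was 3.17-fold (3.13 to 3.22) higher at 21°C. These 4 are closely related in sequence, so how their reads were divided is uncertain, and its part in the opposite differences was not tested.

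**Figure D2:**
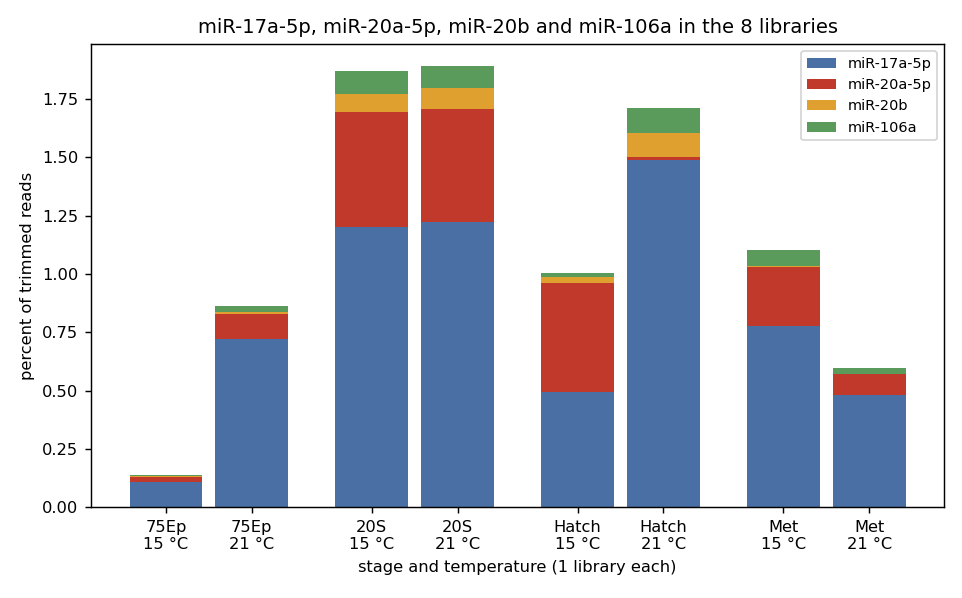
Share of trimmed reads (y axis, percent) taken by miR-17a-5p, miR-20a-5p, miR-20b and miR-106a in each of the 8 libraries (x axis, stage and incubation temperature), stacked, 1 library per bar. At Hatch miR-20a-5p fills 46.7% of the bar at 15°C and 0.747% at 21°C, although the whole bar is 1.70-fold higher at 21°C.

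The rest of the miR-17-92 group did not follow miR-17a-5p. Of 19 compared members among 21, 3 were at least 2-fold higher (the 3 named above) and 2 at least 2-fold lower (both strands of miR-20a), beside 20 each way of all 205. Rescaled, 3 of the 19 were higher and 3 lower, beside 13 and 42 of all 205. The median of the 19 was -0.17 as deposited, close to that of all miRNAs. miR-19b-3p had 42530 reads (0.986%) at 15°C and 20948 (0.643%) at 21°C, 1.53-fold (1.51 to 1.56) less at 21°C, and miR-19a-3p was 1.55-fold (1.51 to 1.59) less. miR-92a, with 5621 and 6035 reads, was 0.51 higher on the log2 scale, and miR-18a, with 7340 and 5081, was -0.13.

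In the miR-101 family, the 5p strands of miR-101a and miR-101b also went in opposite directions. For miR-101b-5p, 287 reads were found at 15°C and 1 at 21°C, a 217-fold difference (38.6 to 8590) with a wide interval since it rests on that 1 read. Conversely, 5 reads of miR-101a-5p were found at 15°C and 104 at 21°C, 27.5-fold (11.4 to 86.6) more at 21°C. Their sum was 292 reads at 15°C and 105 at 21°C, 2.10-fold (1.67 to 2.65) less at 21°C. At 75Ep as well, miR-101b-5p went with 138 and 0 reads and miR-101a-5p with 0 and 24, while at 20S and Met miR-101b-5p was the more frequent at both temperatures. miR-101b itself, a regulator of the methyltransferase Ezh2 in mammals, had 347 and 246 reads, a difference of -0.09. Reads were also summed over entries with the same miRNA number and arm, where an entry with no arm in its name joined the arm with more reads, which can put strands of different arms into a sum. This gave 145 sums above the read minimum, of which 12 were at least 2-fold higher at 21°C and 15 at least 2-fold lower, with a median of -0.10. With entries of no named arm kept apart, there were 163 sums, 14 higher and 18 lower, with a median of -0.09. Among the 36 sums of the first kind with at least 2 compared members, miR-20 and miR-101 were the 2 whose members were past 2-fold in both directions.

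Strands of the same precursor often differed from each other. Both strands had at least 20 reads for 36 precursors. In 17 of them the 2 strands differed in their temperature difference by at least 2-fold (47.2%), and in 17 both strands lay on the same side of the median of all miRNAs. At the other stages the share with strands at least 2-fold apart was 61.1% of 18 precursors at 75Ep, 42.9% of 28 at 20S and 34.2% of 38 at Met. With at least 100 reads on each strand, the share at Hatch was 39.3% of 28 precursors. The largest gap was in miR-9a, a regulator of neural progenitors. Its 5p strand, miR-9a-5p, was read 653 times at 15°C and 19 times at 21°C, 26.0-fold (16.5 to 43.4) less at 21°C, whereas miR-9a-3p had 1015 and 822, a difference of 0.10. The 5p strand thus made up 39.1% of the reads of miR-9a at 15°C and 2.26% at 21°C. In miR-181a, which takes part in muscle differentiation in mice, the 5p strand had 10181 and 12980 reads (0.76 higher at 21°C) and the 3p strand 24152 and 9795 (-0.90), so the 5p strand held 29.7% of both at 15°C and 57.0% at 21°C. In miR-122, a liver miRNA, the 5p strand had 159 and 212 reads (0.82) and the 3p strand 112 and 40 (-1.08). miR-210 differed little between strands, as given next.

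**Figure D3:**
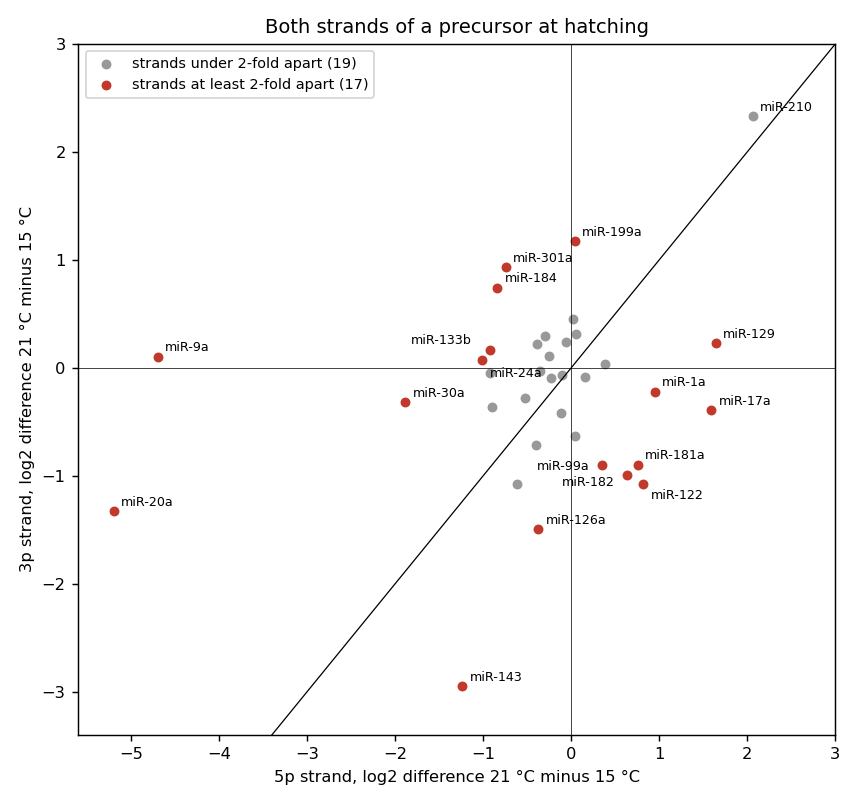
Difference between temperatures (21°C minus 15°C, log2 of the percent of trimmed reads) of the 5p strand (x axis) and the 3p strand (y axis) of 36 precursors with at least 20 reads on each strand at Hatch; the diagonal marks equal differences. In 17 precursors the strands are at least 2-fold apart, with miR-9a and miR-20a farthest from the line, and miR-210 is high on both axes.

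Several miRNAs outside these families were higher at 21°C. miR-210, the miRNA induced by hypoxia through HIF in mammals, was higher on both strands. miR-210-3p had 125 reads (0.00290%) at 15°C and 475 (0.0146%) at 21°C, 5.03-fold (4.12 to 6.18) more, and miR-210-5p had 346 and 1094 reads, 4.19-fold (3.71 to 4.74) more. miR-202-5p, a miRNA of the gonads and of maternal origin in fish eggs, had 29 and 85 reads, 3.88-fold (2.52 to 6.14) more, while miR-202-3p had 0 and 2. miR-199a-3p, expressed in mesenchyme around muscle and bone, had 2741 and 4660 reads, 2.25-fold (2.15 to 2.36) more, whereas miR-199a-5p had 2443 and 1901, a difference of 0.04. miR-4454, first named in human, had 104 and 241 reads, 3.07-fold (2.43 to 3.90) more.

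The pancreatic miR-216b showed the highest ratio of all, from 2 reads at 15°C to 144 at 21°C (95.3-fold, 25.9 to 795). It shares a cluster with miR-217 and miR-216a in vertebrates. miR-217 had 68 and 105 reads, 2.05-fold (1.49 to 2.82) more at 21°C, and miR-216a had 8 in each library. miR-375 and miR-7a, which mark the endocrine pancreas, had 3271 and 2754 reads (a difference of 0.16) and 3486 and 2325 (-0.18). The 4 compared members of this group had a median of 0.59 (0.30 rescaled). At least 2-fold higher were 2 of the 4, beside 20 of all 205. Rescaled, 1 of the 4 was, miR-216b, beside 13 of all 205. miR-216b at 15°C was also lower than in every other library, where it had between 14 reads (75Ep at 21°C) and 987 (Met at 15°C).

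Some miRNAs of vessels and smooth muscle were lower at 21°C. Of 10 listed, 8 were compared, with differences from -2.95 to -0.05 and a median of -0.73. At least 2-fold lower were 3 of the 8, beside 20 of all 205, and none was 2-fold higher. Rescaled, 4 of the 8 were at least 2-fold lower, beside 42 of all 205, and the median was -1.03. miR-126a-3p, the endothelial miRNA that maintains vessel integrity in zebrafish, had 6201 reads (0.144%) at 15°C and 1659 (0.0509%) at 21°C, 2.82-fold (2.67 to 2.98) less at 21°C. miR-143-3p, a miRNA of smooth muscle, had 603 and 59 reads, 7.72-fold (5.90 to 10.3) less, and miR-143-5p 25 and 8. miR-145, which lies in the same cluster as miR-143, had 5494 and 3823 reads, a difference of -0.12, and miR-221-3p had 6420 and 4697 (-0.05). In whole larvae, fewer cells of a type and less RNA per cell cannot be told apart.

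Apart from miR-223-3p, the listed miRNAs of blood cells had few reads at hatching. Both strands of the erythroid miR-144 had no read in either library, and the erythroid miR-451 had 10 reads at 15°C and 5 at 21°C, so red blood cell miRNAs were below the read minimum. Of 8 miRNAs known from white blood cells, 5 were compared, with a median of -0.82. At least 2-fold lower was 1 of the 5 (3 rescaled), beside 20 of all 205 (42 rescaled), and none was 2-fold higher. The lymphocyte miRNA miR-150 had 126 and 54 reads, 1.76-fold (1.27 to 2.47) less at 21°C, and miR-155 32 and 9, 2.68-fold (1.25 to 6.40) less. The myeloid miR-223-3p had 1456 and 1185 (0.11 higher), and miR-146a 93 and 95 (0.44 higher). Summed over the 8, reads were 1738 and 1350, most of them from miR-223-3p, a ratio of 1.03 (0.957 to 1.11).

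The miR-430 family had a median of -0.91 over its 4 compared members (-1.21 rescaled). At least 2-fold lower at 21°C were 2 of the 4, beside 20 of all 205. Rescaled, 3 of the 4 were, beside 42 of all 205. miR-430d had 35364 reads (0.820%) at 15°C and 13124 (0.403%) at 21°C, 2.03-fold (1.99 to 2.08) less, miR-430c had 5083 and 2204, 1.74-fold (1.66 to 1.83) less, and miR-430e had 42 and 11. miR-430a went the other way, with 33605 reads (0.779%) and 31505 (0.967%), 1.24-fold (1.22 to 1.26) more at 21°C. Rescaled, miR-430a differed by 0.02. These are close copies, and the family sum was 74095 and 46845 reads, 1.19-fold (1.18 to 1.21) less at 21°C.

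The let-7 family, which drives differentiation and appears late in animal development, was at low levels at hatching, with 1186 reads in all at 15°C and 709 at 21°C. As a share of trimmed reads, the family sum was 1.26-fold (1.15 to 1.39) less at 21°C, a difference of -0.34. The members are close copies, so the split of reads among them is uncertain. The 6 compared members had a median of -0.59, and let-7a, with 394 and 126 reads, was 2.36-fold (1.93 to 2.91) less at 21°C. let-7g, with 550 and 455 reads, did not follow it (0.13). Of the 6 compared members of the miR-30 family, all 6 were below 0, beside 114 of all 205 (149 rescaled), from -1.88 (miR-30a-5p, 44 and 9 reads) to -0.10 (miR-30e, 5001 and 3513), with a median of -0.47. In the group of miR-23, miR-24 and miR-27, which lie in shared clusters, 2 of 9 were at least 2-fold lower, beside 20 of all 205. These were miR-27b-3p (541 and 194 reads, 2.11-fold less, 1.78 to 2.49) and miR-24a-5p (16 and 6 reads). The median of the 9 was -0.36. Rescaled, 2 of the 9 were at least 2-fold lower, beside 42 of all 205.

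miRNAs of muscle, skin and the body axis had medians near that of all. All 10 compared muscle miRNAs were within 2-fold, as were most of all 205, of which 20 were higher and 20 lower. The 10 ran from -0.92 to 0.95, with a median of -0.06. The lowest was miR-133b-5p with 333 and 133 reads, 1.89-fold (1.54 to 2.33) less at 21°C and past 2-fold when rescaled, and the highest was miR-1a-5p, 1.93-fold more on values that are not whole reads. miR-206-3p, which promotes the differentiation of myoblasts, had 50392 reads (1.17%) at 15°C and 47680 (1.46%) at 21°C, 1.25-fold (1.24 to 1.27) more, but only 0.03 more on the log2 scale when rescaled. miR-133a-5p had 4744 and 2913 reads (-0.30), miR-1a-3p stood at -0.22 on values that are not whole reads, and miR-499-5p of slow muscle had 278 and 194 (-0.11). The epidermal miR-203a had 75746 and 61692 reads, a difference of 0.11, and miR-205-5p 22275 and 13130 (-0.36). Of the 10 compared miRNAs of skin and epithelia, 1 was at least 2-fold higher, miR-200c with 12 and 19 reads, beside 20 of all 205. The 6 compared miRNAs of the Hox clusters, miR-10 and miR-196, were all within 2-fold with a median of 0.11, as were 6 miRNAs known from lipid metabolism, namely the compared entries of miR-33, miR-103 and miR-107 (median 0.08, miR-122 being counted with the liver) and the 4 of cartilage (0.01). Rescaled, 1 of the 10 of muscle and 1 of the 4 of cartilage were at least 2-fold lower, beside 42 of all 205. No other member of these groups was then past 2-fold either way.

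Neural and sensory miRNAs were mixed. Of 24 neural miRNAs, 19 were compared, with a median of -0.16. At least 2-fold higher at 21°C were 2 (miR-218b with 727 and 1155 reads, and miR-129-5p with 11 and 26). At least 2-fold lower was 1 (miR-9a-5p), beside 20 each way of all 205. Rescaled, 1 of the 19 was higher and 3 were lower, beside 13 and 42 of all 205. miR-124-3p, the most typical neuronal miRNA, had 2526 and 1483 reads (-0.36), and miR-218a of motor neurons 11323 and 11107 (0.38). In the eye and sensory organs the median was 0.36 over 8 miRNAs. miR-204, of the retinal pigment epithelium and lens, had 64745 and 51832 reads (0.08). miR-183 of hair cells and photoreceptors had 1694 and 2171 (0.76), and miR-184-3p of the lens and cornea 5143 and 6491 (0.74). In contrast, miR-184-5p had 3104 and 1309 reads (-0.84) and miR-182-3p 171 and 65 (-0.99). As deposited, 1 of the 8 was at least 2-fold higher and none lower, beside 20 each way of all 205. The 1 was miR-204b, with 8 and 13 reads and an interval that included a ratio of 1. Rescaled, none was higher and 2 were lower, beside 13 and 42 of all 205. In the liver and gut group, miR-192 had 10347 and 6786 reads (-0.20) and miR-194a 211 and 87 (-0.87). With the strands of miR-122 given above, one higher and one lower at 21°C, the 4 compared members ran from -1.08 to 0.82, with a median of -0.54.

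**Figure D4:**
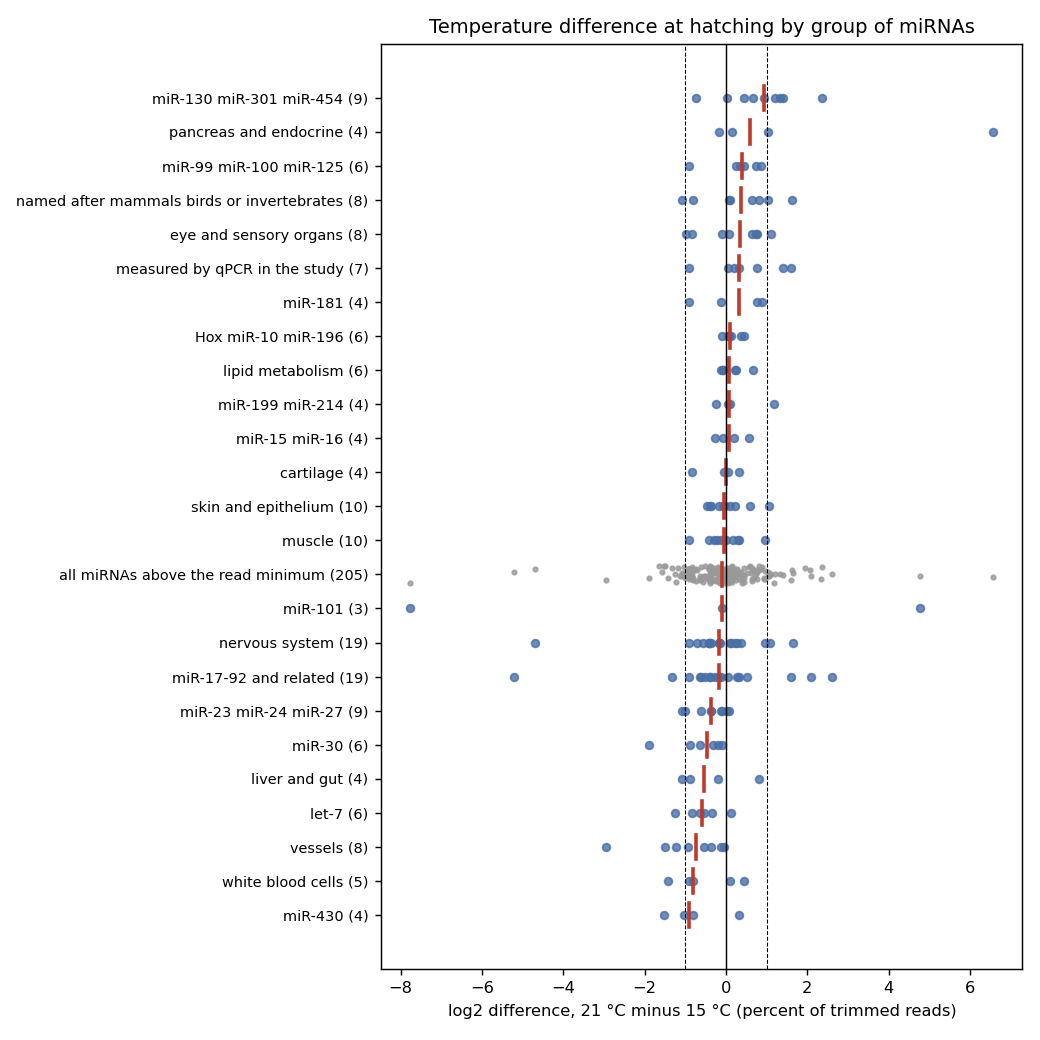
Difference between temperatures at Hatch (x axis, 21°C minus 15°C, log2 of the percent of trimmed reads) of each miRNA with at least 20 reads, by group of miRNAs (rows, with the number compared). Points are miRNAs, red bars medians and dashed lines 2-fold, for groups with at least 3 miRNAs compared. Their medians run from -0.91 for miR-430 to 0.93 for the miR-130 family, around -0.09 for all 205.

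miRNAs measured by qPCR in the study were 7. The study ran that qPCR on replicate pools, also at hatching, and tested it between temperatures with a t-test. It chose the 7 for known functions and for differences with stage or temperature in this same sequencing. They are therefore not independent of these values. In these libraries 2 of them, miR-130c and miR-17a-5p, were at least 2-fold higher at 21°C and none was 2-fold lower, beside 20 each way of all 205. miR-26a had 9904 and 8612 reads, 1.15-fold (1.12 to 1.19) more as deposited and -0.09 on the log2 scale when rescaled. Its close copy miR-26b, not among the 7, went the other way (-0.89, and past 2-fold lower when rescaled). The sum of both was 11275 and 9171 reads, 1.08-fold (1.05 to 1.11) more at 21°C, and the split of reads between them is uncertain. The remaining miRNAs of the 7 are described above with their families. Of the 5 compared members of this set within 2-fold, miR-181a-5p kept its direction rescaled (0.46) and miR-199a-5p turned to -0.25. miR-181a-3p, at -0.90 as deposited, was past 2-fold lower when rescaled. On that scale 2 of the 7 were at least 2-fold higher and 1 lower, beside 13 and 42 of all 205. miRNAs whose names come from mammals, birds or invertebrates numbered 48, of which 8 had enough reads, with a median of 0.36.

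Other miRNAs past 2-fold had few reads. Lower at 21°C were miR-733 (25 and 6 reads), miR-459 (67 and 17), miR-147b (24 and 8), miR-458a-5p (61 and 21) and miR-3618 (50 and 18), and higher were miR-1260b (144 and 222) and miR-204b (8 and 13). The interval of miR-147b, miR-24a-5p, miR-200c and miR-204b included 1. No miRNA with 20 or more reads at 1 temperature was undetected at the other. The 16 miRNAs read at 15°C alone had at most 8 reads and the 14 read at 21°C alone at most 3, and a count of 0 allows up to 3 reads, so no difference was detectable for most of these at this depth.

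miRNAs that increase or decrease between 20S and Met, the stages on either side of Hatch, had medians at Hatch close to that of all. Those that increased at least 4-fold from 20S to Met at both temperatures numbered 62 among the 205, with a median difference at Hatch of -0.02. Of the 62, 6 were at least 2-fold higher and 5 lower, beside 20 each way of all 205. Those that decreased at least 4-fold numbered 18, with a median of 0.03, 3 higher and 4 lower. The other 125 had a median of -0.09. Rescaled, the medians of the 62 and the 18 were -0.32 and -0.27, beside -0.38 for all. At a 2-fold threshold between stages, the median of those that decreased was lower, as given below.

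At the other stages the whole distribution could be shifted, with median differences of 1.17 at 75Ep, 0.01 at 20S and -1.39 at Met. The range between quartiles was 0.84 at Hatch, 1.84 at 75Ep, 0.73 at 20S and 0.99 at Met. As deposited, with these shifts included, at 75Ep 56.8% of 139 compared miRNAs were at least 2-fold higher at 21°C and 6.47% at least 2-fold lower, at 20S 6.74% and 9.55% of 178, and at Met 2.67% and 68.9% of 225. In limma, the difference at Hatch was set against the mean difference of the other 3 stages, taken as replicates of a common difference. These stages are not alike in this. At 75Ep and 20S the embryos were still at 15°C or 21°C, whereas the larvae of Met had all been kept at 21°C since hatching. Each miRNA alone leaves 2 residual degrees of freedom, so limma drew the variance largely from all miRNAs. Standard errors thus depended little on a miRNA's own spread among stages. miR-125a had 1.90 with differences of -0.19, -0.08 and -0.79 at 75Ep, 20S and Met, and miR-126a-5p 1.98 with 0.19, -0.75 and 9.29. As deposited, this shared variance also holds the shifts of whole libraries at 75Ep and Met. Of 205 miRNAs, 1 passed at an adjusted p under 0.05 (0.488%), and 5 had an unadjusted p under 0.05. The 1 was miR-216b, which was 6.58 higher at 21°C on the log2 scale at Hatch and lower at 75Ep (-1.11), 20S (-0.98) and Met (-2.14), a difference of 7.99 (95% interval 3.83 to 12.1, limma adjusted p = 0.0373). It rests on the 2 reads at 15°C, and it passed in 2 of 8 other settings (limma adjusted p from 0.00128 without the libraries of 75Ep to 0.999 without those of 20S), with 0.480 rescaled to the miRNA total and 0.844 without the libraries of Met. For miR-20a-5p (estimate -5.40, limma adjusted p = 0.725) and miR-9a-5p (-5.39, limma adjusted p = 0.725) the difference between stages did not pass at this shared variance. A test on each miRNA's own spread among stages was not made.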

How the data were processed

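Small RNA of whole embryos and larvae was sequenced on the SOLiD platform. The authors trimmed the reads, removed other small RNAs, and matched the rest to known miRNAs. The log2 values deposited by the authors are the log2 of the percent of trimmed reads. Reads per miRNA were recovered from them, with values under 1 read as undetected, and the precision that depth gives is stated as exact 95% intervals from the conditional binomial. All columns of samples were matched to a sample. Reads given to the wrong one of closely related miRNAs cannot be seen in such values.

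Ratios were made for miRNAs with at least 20 reads over both Hatch libraries. The test against the other stages used limma 3.58.1 in R 4.3.3 (stage, temperature and a Hatch by temperature term, variance trend, two-sided, Benjamini-Hochberg adjustment over 205 miRNAs), with undetected values at -16.60. Python 3.11.15, numpy 2.4.6, pandas 2.3.3, scipy 1.17.1 and matplotlib 3.10.9 did the rest. Scripts were tested on simulated data. These held no shifts of whole libraries between temperatures, so they do not show how the limma test behaves under such shifts.

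Named miRNAs are the 10 most abundant of either library, the 10 highest and 10 lowest ratios among those with at least 100 reads, the 7 of the study's qPCR, 2 or more members with the most reads of each of 29 lists, close copies past 2-fold both ways, and any that pass the test. Partner strands, the rarer miRNAs past 2-fold and a few further list members were named after their values were seen, as were the sums over the miR-17 and miR-101 copies. All miRNAs and lists were chosen with earlier results of these data known. Alternatives were other scales, read minimums, thresholds, an added read, summed copies and other limma settings, with 2 added after the data were seen, which leave out any miRNA with a value that is no whole number of reads, or sum entries of no named arm apart. Sequences and precursor positions were not analysed here.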

Additional observations from a re-analysis of the deposited data

Results flagged for a closer look

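For miR-216b the temperature difference at Hatch differed from that of the other stages by 7.99 on the log2 scale in the limma test (adjusted p = 0.0373, the smallest over 205 miRNAs). The variance in that test came largely from all miRNAs rather than from miR-216b alone. miR-216b was higher at 21°C in the 1 pair of libraries at Hatch and lower at 21°C in the pairs of 75Ep, 20S and Met. Its adjusted p ranged from 0.00128 to 0.999 over the 8 alternatives, and it passed in 2 of them. The other pancreatic miRNA of its cluster with reads enough for a ratio, miR-217, was 2.05-fold higher at 21°C at Hatch, but under 2-fold higher when rescaled to the miRNA total. miR-216a, of the same cluster, had 8 reads in each Hatch library.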

How the results depend on the processing

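No paired analysis was possible because no group has a replicate library whose number could pair it, and the fit over stages holds stage as a term already. Of miRNAs past the fold threshold, the counts higher and lower at 21°C were 13 and 42 rescaled to the miRNA total, 40 and 40 with no read minimum, 11 and 9 with a minimum of 200 reads, 40 and 47 at 1.5-fold, 11 and 6 at 3-fold and 12 higher with copies summed, beside 20 and 20. The set compared held 286 miRNAs with no read minimum, fewer than 205 with a minimum of 200 reads, and 145 sums with copies summed. Those counts therefore have other totals than the 205. The median of -0.09 became -0.38 rescaled to the miRNA total and -0.19 without miR-130c in that total. For miRNAs that increase from 20S to Met the median of -0.02 became -0.32 and -0.13 on these scales. For those that decrease, the median of 0.03 became -0.27 and -0.080, and -0.26 with a 2-fold threshold between stages. These shifts follow from the scales, and the cause of the last was not tested. The count that passed against the other stages, 1, became 0 rescaled, centred, with undetected values as deposited, without a variance trend, and without the libraries of 20S or of Met, and 3 without those of 75Ep. The cause was not tested. With reads summed by number and arm, miR-101a-5p turned to -0.46 (in a sum that also takes in miR-101b, which names no arm) and miR-20b to -2.10 (together with miR-20a-5p). With entries of no named arm apart, a setting chosen after seeing the data, miR-101a-5p with miR-101b-5p gave -1.07, and the counts were 14 and 18. Among the miRNAs past 2-fold, 25 were named by the fixed rules given above, and others were named later. Of these 25, 22 stayed past it rescaled, 23 without miR-130c, 22 centred, 17 with copies summed and 20 with entries of no named arm apart. Without the miRNAs that have a value short of whole reads, an alternative chosen after seeing the data, left the counts at 20 and 20. With 1 library a side, depth limits only the counting error.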

Other observations

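The white blood cell miRNA miR-142 had 15 and 6 reads at Hatch (15°C and 21°C), and miR-142b 10 and 1, both under or near the read minimum. miR-126a-5p, the partner of the endothelial miR-126a-3p, had 2715 and 1584 reads at Hatch, a difference of -0.37 beside -1.50 for the 3p strand, and at Met it had 4 and 2136. miR-93, a further relative of miR-17a-5p, had 7018 and 6437 reads, 0.28 higher at 21°C, and including it left the sum of the relatives 1.64-fold (1.62 to 1.66) higher at 21°C.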
